A study of Mus musculus with 6 samples.

Results

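The imprinted growth regulators described here are 10 mouse genes, Igf2, H19, Dlk1, Meg3, Peg3, Mest, Cdkn1c, Plagl1, Grb10 and Igf2r, which were chosen by name. A gene entered when a row of the deposited array table carried its symbol and no other, and the brightest such row stood for it. This gave 9 of the 10 members among 19938 genes measured. H19 had no such row and has no value here. The 6 samples were lumbar spinal cord from E15.5 mouse embryos of strain SV129, 3 wild-type and 3 of genotype TNC -/-, which lack tenascin-C, an extracellular matrix glycoprotein of embryonic glia. Total RNA of each sample went to an array of its own, and within a group the samples are labelled as biological replicates. The labels do not say which part of Tnc was deleted, whether embryos were pooled, or their litter and sex.

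Imprinted genes are transcribed mainly from the allele of 1 parent, because an imprinting control region was methylated in the egg or the sperm. Many act on growth in opposed pairs. The paternally expressed Igf2, Dlk1, Peg3, Mest and Plagl1 include promoters of growth, and the maternally expressed H19, Cdkn1c, Igf2r and, in most tissues, Grb10 restrain it. In the nervous system several are known to depart from this rule: Grb10 is expressed from the paternal allele in neurons, and Igf2r from both alleles. The array does not separate parental alleles, so each value is the summed signal of both, and imprinting itself was not measured.

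All 9 members were detected in every array, above 6.14 on the log2 scale, the level that 95% of the olfactory and vomeronasal receptor genes do not exceed and that serves as a guide to background. No difference between knockout and wild type passed the test. By limma with Benjamini-Hochberg adjustment over all genes 0 of 9 members passed an adjusted p of 0.05, as did 0% of all genes, and 0 members had an unadjusted p under 0.05, against 1.70% of all genes. Groups without overlap were found for 0 members, against 5.82% of all genes. Knockout means were above wild type for 5 members and below it for 4, and the median difference was 0.02 log2 units, against -0.01 over all genes. The 95% confidence intervals of the 9 differences together reached from -0.37 to 0.46, so knockout signals under 77.2% or over 137% of wild type lie outside every interval.

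Tnc itself read 10.72, 10.22 and 10.02 in wild-type replicates 1 to 3 and 9.64, 9.76 and 9.47 in knockout replicates 1 to 3. Its difference was -0.69 (95% confidence interval -1.09 to -0.30), and its groups did not overlap (p = 0.1 by exact permutation, two-sided, which is as low as 3 arrays against 3 can go). The embryos also differed in sex, since Xist was low and Y-linked genes were high in knockout replicates 1 and 3 only. Neuron and radial glia lists stood above the background guide for 15 of 15 and 14 of 14 measured genes, and skeletal muscle and cartilage lists for 12 of 20 and 10 of 14. In such bulk tissue, fewer cells of a type and less RNA per cell cannot be told apart.

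**Figure D1:**
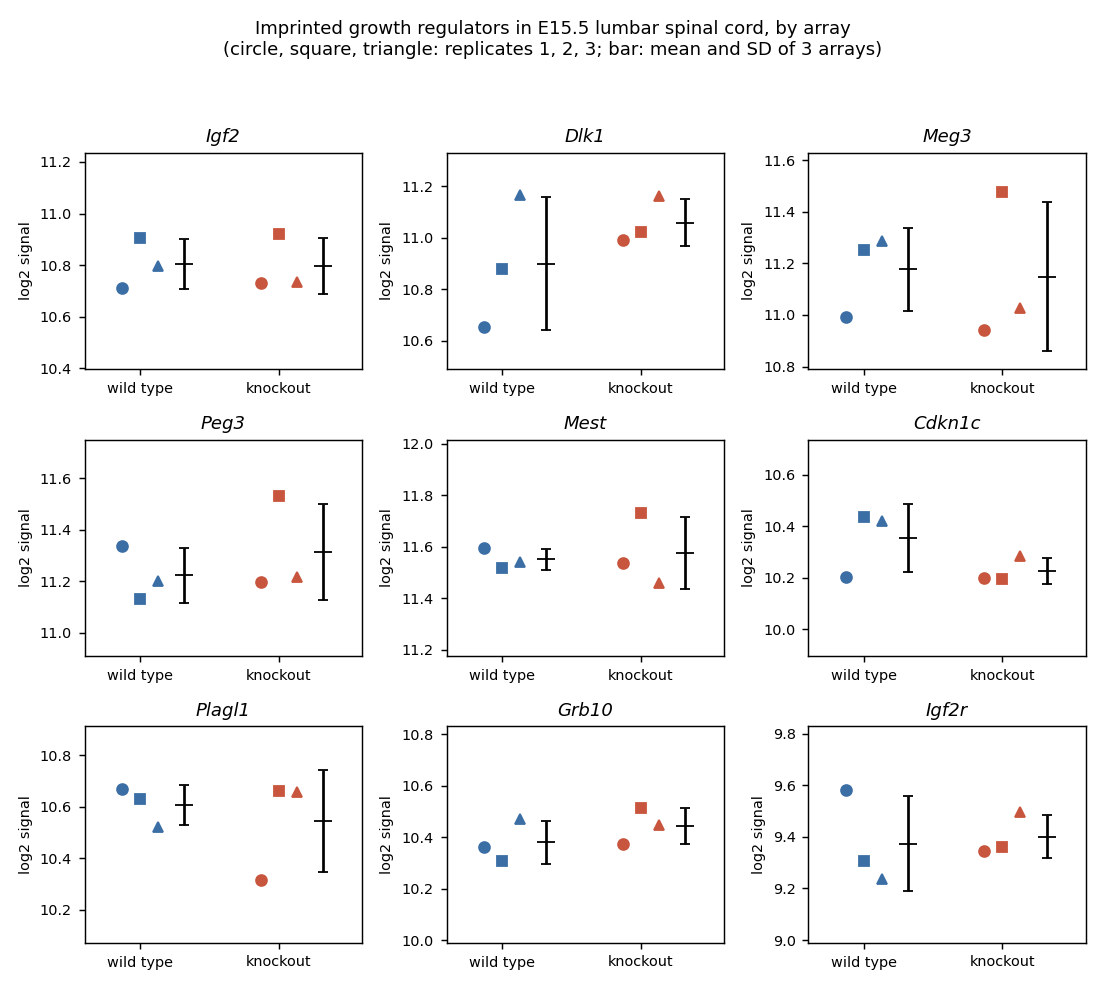
Log2 signal of the 9 members in each array (y axis, each panel spanning the same height in log2 units), with wild type in blue and knockout in red; circles, squares and triangles are replicates 1, 2 and 3, and black bars give the mean and SD of 3 arrays. The groups overlap in every panel, and knockout replicate 2 is the highest array for Igf2, Meg3, Peg3, Mest and Grb10.

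Among the ligands, Igf2 encodes insulin-like growth factor 2, the main fetal growth factor of this family, known to be strongly made by meninges, choroid plexus and vessels of the developing nervous system. Igf2 read 10.71, 10.90 and 10.80 in the wild-type arrays and 10.73, 10.92 and 10.73 in the knockout arrays. Both group means were 10.80, and the SDs were 0.10 and 0.11 (n = 3 each). The second replicate was the highest in either group. The difference of -0.01 had an interval from -0.21 to 0.19 (limma unadjusted p = 0.927).

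Dlk1 encodes a transmembrane protein related to the Notch ligands, known for its roles in fat, muscle and motor neurons. Its values were 10.65, 10.88 and 11.17 in wild type and 10.99, 11.02 and 11.16 in knockout. Wild type spanned 0.51 log2 units and enclosed all of the knockout values but did so through replicate 1 at the low end and replicate 3 at the high end. The means were 10.90 ± 0.26 and 11.06 ± 0.09 (SD, n = 3 each), and the difference of 0.16 (interval -0.14 to 0.46, limma unadjusted p = 0.254) was the greatest of the 9 members in size. It depended on those wild-type arrays, being 0.04 without wild-type replicate 1 and 0.29 (limma unadjusted p = 0.0164, adjusted p = 0.697) without wild-type replicate 3.

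On the receiving side, Igf2r encodes the receptor that takes up insulin-like growth factor 2 and sends it to lysosomes. Igf2r read 9.58, 9.30 and 9.24 in wild type and 9.34, 9.36 and 9.50 in knockout, and the wild-type arrays marked both ends of its range. The difference was 0.03 (interval -0.22 to 0.27). Airn, the antisense transcript that silences the paternal Igf2r allele outside neurons, averaged 7.87 ± 0.20 in wild type (SD, n = 3) and differed by 0.14 in knockout, with an interval from -0.13 to 0.40. Grb10, an adaptor that dampens insulin and insulin-like growth factor receptor signalling, was the least variable member, with an SD of 0.08 over the 6 arrays. It read 10.36, 10.31 and 10.47 in wild type and 10.37, 10.51 and 10.45 in knockout. Its difference was 0.06 (interval -0.12 to 0.24), and leaving out replicate 2 gave 0.026 (wild type) or 0.028 (knockout), where leaving out wild-type replicate 3 gave 0.11 and knockout replicate 1 gave 0.098.

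Cdkn1c, which encodes the cyclin-dependent kinase inhibitor p57 made by progenitors as they leave the cell cycle, read 10.20, 10.44 and 10.42 in wild type and 10.20, 10.20 and 10.28 in knockout. All knockout values lay below wild-type replicates 2 and 3, but wild-type replicate 1 stood with the lower knockout arrays. The means were 10.35 ± 0.13 and 10.23 ± 0.05 (SD, n = 3 each). The difference of -0.13 (interval -0.33 to 0.07) had the smallest unadjusted p of the members, 0.179 by limma. Without wild-type replicate 1 it was -0.20 (limma unadjusted p = 0.0310, adjusted p = 0.999).

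Plagl1 encodes a zinc finger factor known to regulate other imprinted genes. It read 10.67, 10.63 and 10.52 in wild type and 10.31, 10.66 and 10.66 in knockout, so that knockout replicate 1 alone stood low and the other 5 arrays lay close together. Peg3, a zinc finger protein of neurons and other tissues, read 11.34, 11.13 and 11.20 in wild type and 11.19, 11.53 and 11.22 in knockout, with knockout replicate 2 the highest. Mest, which encodes a membrane protein of the hydrolase fold, read 11.60, 11.52 and 11.54 in wild type and 11.54, 11.73 and 11.46 in knockout. The knockout arrays of Mest included both the highest and the lowest value. The differences were -0.06 for Plagl1 (interval -0.31 to 0.19), 0.09 for Peg3 (-0.16 to 0.34) and 0.02 for Mest (-0.18 to 0.23). Without knockout replicate 2, Peg3 differed by -0.02 and Mest by -0.05.

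Meg3 is the maternally expressed long noncoding RNA of the Dlk1 domain on chromosome 12. It read 10.99, 11.25 and 11.29 in wild type and 10.94, 11.48 and 11.03 in knockout, and had the widest spread of the members, 0.54 log2 units. Wild-type replicate 1 and knockout replicates 1 and 3 were low, and the other 3 arrays were high. The difference between groups was -0.03 (interval -0.37 to 0.32) and was -0.19 without knockout replicate 2.

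**Figure D2:**
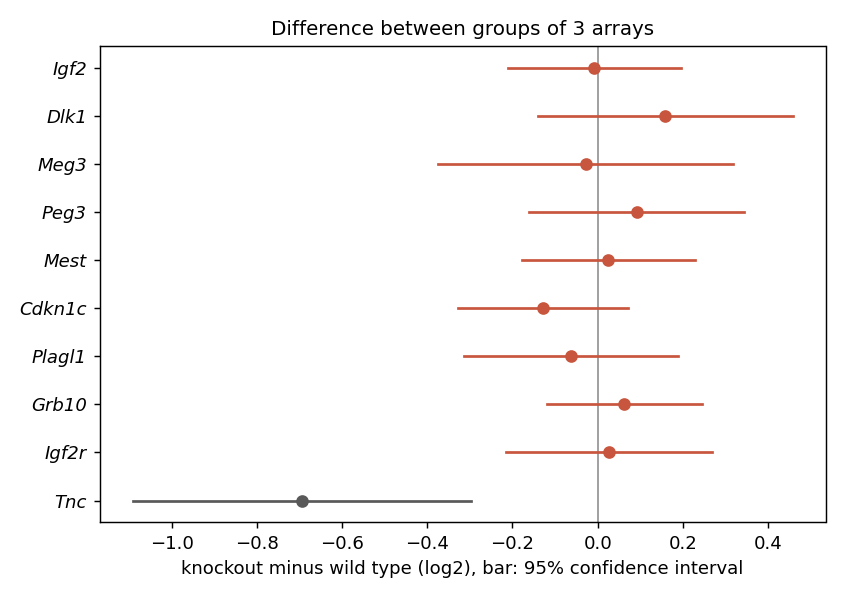
Knockout minus wild type in log2 units (x axis) for the 9 members and Tnc (y axis); points are fitted differences of 3 arrays against 3 and bars their 95% confidence intervals. All 9 member intervals include 0, and that of Tnc lies below it.

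Knockout replicate 2 was the highest array for 5 of the 9 members, Igf2, Meg3, Peg3, Mest and Grb10. It was the highest array for 8.73% of all genes, and for 11.8% of the 6970 genes with a mean of at least 9. The mean over the members was 10.82 in that array and lay between 10.62 and 10.74 in the other 5. Knockout replicate 2 is the knockout array without Y-linked signal. With a sex term the knockout arm is this array alone, and the differences, given with no test, were 0.31 for Peg3, 0.30 for Meg3 and 0.18 for Mest. The mean level of the endothelium list, with 16 of 17 genes above the background guide, was also highest in that array, at 8.65 against 8.37 to 8.48 in wild type and 8.44 and 8.56 in the other knockout arrays. Of the 17 genes 15 were higher and 2 lower in knockout, with a median of 0.15. An unadjusted p under 0.05 in limma was reached by 5 (29.4%, against 1.70% of all genes), and 0 passed the adjusted p. By small margins it was highest for the neuron list (11.878, next 11.876 in knockout replicate 1) and motor neuron list (8.820, next 8.818 in wild-type replicate 3). So it was for the radial glia list, which includes Tnc (10.721, next 10.718), and other imprinted genes (8.65, next 8.64). Knockout replicate 2 was lowest for microglia (7.71). Wild-type arrays were highest for the meninges and fibroblast, pericyte, blood, skeletal muscle, cartilage, proliferation and insulin-like growth factor axis lists. The part of sex and of these cell types in the members' levels was not tested.

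Co-variation was measured over the 6 arrays for the 36 pairs of 9 members. Igf2 and Meg3, which lie on chromosomes 7 and 12, varied together with r = 0.90 (exact permutation p = 0.0194) and Spearman's rho = 0.89 (exact permutation p = 0.0333). Adjusted over the 36 pairs, the p of r was 0.35. The relation was 0.94 without wild-type replicate 2 and knockout replicate 2, the arrays farthest from the median of Igf2. It ran from 0.82 to 0.96 with any 1 array left out, and was 0.90 with group means removed. Of all genes, 0.231% followed Igf2 as closely and 0.316% followed Meg3 as closely.

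Peg3 and Mest, on chromosomes 7 and 6, had r = 0.91 (exact permutation p = 0.0194, 0.35 adjusted over 36 pairs) and rho = 0.66 (exact permutation p = 0.175). Here r was -0.31 without wild-type replicate 1 and knockout replicate 2, so the relation rests on that pair of arrays. It was 0.91 without wild-type replicate 1 alone and 0.59 without knockout replicate 2 alone, and ran up to 0.99 with any 1 array left out. The lowest r of a pair was -0.65, for Peg3 and Cdkn1c (exact permutation p = 0.121, and 0.790 adjusted over 36 pairs). Dlk1 and Meg3, neighbours expressed from opposite parental alleles, had r = 0.28 (exact permutation p = 0.589). Igf2 and its clearance receptor Igf2r had r = -0.56 (exact permutation p = 0.232). Of the 36 pairs 24 had a positive r, or 66.7%, against 51.2% of all pairs of genes, and 1 pair reached 0.9, or 2.78%, against 1.74% of all pairs of genes. The pairs share genes and arrays, so the values of r are not independent.

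**Figure D3:**
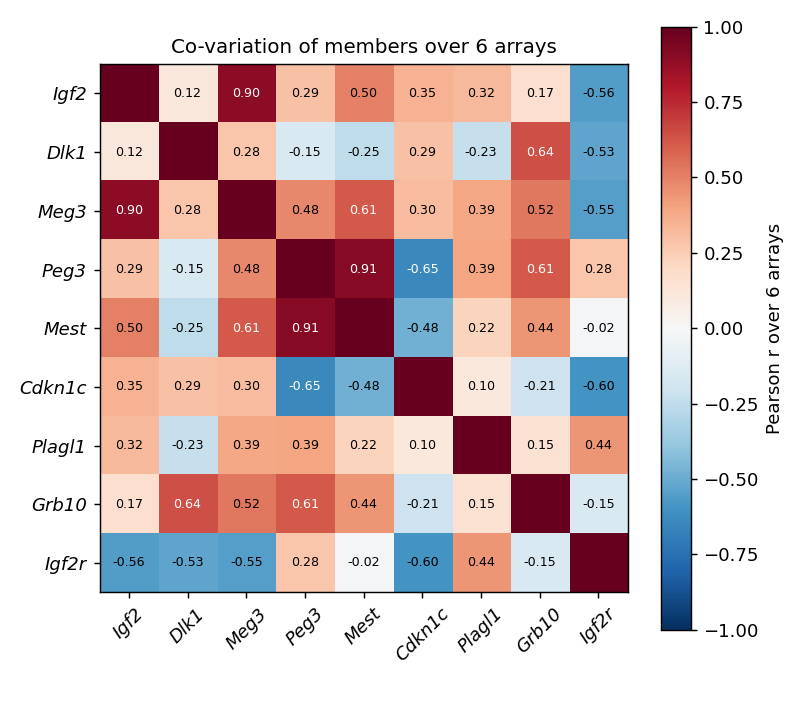
Pearson r over the 6 arrays for each pair of the 9 members (rows and columns), from blue at -1 to red at 1, with r printed in each cell. Igf2 with Meg3 and Peg3 with Mest are the darkest red cells, at 0.90 and 0.91.

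The promoter windows of Meg3 and Igf2 are shown because this pair kept its relation with arrays left out, and that of Peg3 because it alone among the members held the letters searched. Windows are from RefSeq, build GRCm38.p6, and 8 of the 10 members have at least 1. The letters were GGGGCCCC, a core bound by the factor of Plagl1, which read the same on both strands. They occurred once, in Peg3, starting 201 bases before the gene start, and in 1.08% of 32851 windows. Of several windows of Igf2 and Meg3, that with the most CpG dinucleotides is printed. Capitals mark CpG dinucleotides, of which these windows hold 13 (Meg3), 24 (Igf2) and 13 (Peg3), against a median of 7 over all windows, 37.9% of which hold at least 13. The other windows of Igf2 hold 2, 14 and 7, and that of Meg3 holds 1. Their methylation was not measured.
Meg3, chr12:109540746-109541045, plus strand: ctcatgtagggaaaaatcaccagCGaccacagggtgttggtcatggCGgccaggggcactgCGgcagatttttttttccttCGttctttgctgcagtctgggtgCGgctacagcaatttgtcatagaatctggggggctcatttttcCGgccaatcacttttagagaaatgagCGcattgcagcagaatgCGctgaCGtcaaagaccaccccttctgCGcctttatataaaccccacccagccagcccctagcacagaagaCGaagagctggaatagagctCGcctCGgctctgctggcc
Igf2, chr7:142658755-142659054, minus strand: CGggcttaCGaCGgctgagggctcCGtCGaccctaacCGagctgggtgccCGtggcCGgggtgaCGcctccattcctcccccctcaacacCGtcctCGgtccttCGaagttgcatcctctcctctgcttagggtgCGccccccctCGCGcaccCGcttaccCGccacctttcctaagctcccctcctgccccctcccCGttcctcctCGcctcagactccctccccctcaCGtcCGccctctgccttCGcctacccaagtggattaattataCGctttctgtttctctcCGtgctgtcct
Peg3, chr7:6730370-6730669, minus strand: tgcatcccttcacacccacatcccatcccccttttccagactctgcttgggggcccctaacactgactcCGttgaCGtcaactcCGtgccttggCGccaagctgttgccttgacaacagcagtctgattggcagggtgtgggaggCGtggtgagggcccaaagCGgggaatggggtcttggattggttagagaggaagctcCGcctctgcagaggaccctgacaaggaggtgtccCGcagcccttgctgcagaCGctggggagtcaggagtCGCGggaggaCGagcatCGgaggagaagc

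The chromosome 12 domain continues past Meg3 with a long cluster of microRNA hairpins, which are expressed from the maternal allele like Meg3 and are thought to be processed from transcripts that follow it. Between Meg3 and Dio3 the RefSeq table places 58 hairpins, of which 39 have a row of their own on the array. These rows report hybridisation of labelled long RNA, not the mature microRNA, and only 20 of the 39 had a mean above the background guide. Against Meg3 over the 6 arrays, 34 of the 39 had a positive r (53.8% of all genes and 64.4% of the 261 other microRNA rows did so). An r of at least 0.7 was reached by 9 rows, or 23.1%, against 3.81% of all genes and 2.68% of the other microRNA rows. With group means removed 34 rows still had a positive r. The list was chosen after the values were seen, and the rows share a domain and the arrays, so these counts are a description. Rian, a neighbour of Meg3 in this domain, read 6.84, 6.64 and 6.73 in wild type and 6.55, 6.63 and 6.54 in knockout. Wild-type replicate 1 was the highest array of Rian but a low array of Meg3.

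The 5 rows above the background guide with an r of at least 0.7 were those of Mir127, Mir329, Mir679, Mir485 and Mir487b. Mir127, which lies antisense to the retrotransposon-like gene Rtl1, read 6.96, 7.21 and 7.33 in wild type and 7.02, 7.42 and 7.10 in knockout. As for Meg3, wild-type replicate 1 and knockout replicates 1 and 3 were its low arrays. Its r with Meg3 was 0.96 (exact permutation p = 0.00417) and rho 0.94 (exact permutation p = 0.0167). The p of r was 0.171 when adjusted over 41 such relations, and r was 0.94 without the arrays farthest from the median of Meg3. Mir329 had r = 0.91 (rho = 0.77, exact permutation p = 0.0139 and 0.103), and 0.97 without those arrays. For Mir679, Mir485 and Mir487b r was 0.87, 0.82 and 0.79, and the last was 0.36 without the arrays farthest from the median. None of the 39 rows had an unadjusted p under 0.05 between groups in limma, 15 being higher and 24 lower in knockout with a median of -0.03.

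Among rows with a mean above the background guide, those of these 5 hairpins varied most closely with Meg3, in whose domain they lie. With means below the guide, Mir494 had r = 0.93 and Mir434 had r = 0.82. The mature microRNAs that RefSeq lists for the 5 hairpins are therefore given. Those of the hairpins within Mest and Igf2 are given because these lie inside a member. Capitals mark the seed, bases 2 to 8, by which a microRNA pairs with its targets. The 12 sequences have 12 different seeds, so none share a seed family.
mmu-miR-127-5p: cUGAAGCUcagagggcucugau
mmu-miR-127-3p: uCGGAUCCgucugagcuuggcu
mmu-miR-329-5p: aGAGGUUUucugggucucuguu
mmu-miR-329-3p: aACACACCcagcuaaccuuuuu
mmu-miR-679-5p: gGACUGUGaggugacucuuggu
mmu-miR-679-3p: aGCAAGGUccuccucacaguag
mmu-miR-485-3p: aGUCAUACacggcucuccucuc
mmu-miR-487b-5p: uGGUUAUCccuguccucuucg
mmu-miR-335-5p: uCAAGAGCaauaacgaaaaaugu
mmu-miR-335-3p: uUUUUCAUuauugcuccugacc
mmu-miR-483-5p: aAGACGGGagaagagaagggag
mmu-miR-483-3p: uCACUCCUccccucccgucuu

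Mir335, within Mest, read between 5.44 and 5.73, below the background guide in all 6 arrays, and its r with Mest was -0.01 (exact permutation p = 0.983). Mir483, within Igf2, read 7.55, 7.70 and 8.38 in wild type and 7.49, 7.76 and 8.08 in knockout. The third replicate was its highest array in each group, where Igf2 had the second. Its r with Igf2 was 0.05 (exact permutation p = 0.939) and rho 0.49 (exact permutation p = 0.356), but r was 0.85 without wild-type replicate 2 and knockout replicate 2, so whether the rows vary together depends on those arrays.

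**Figure D4:**
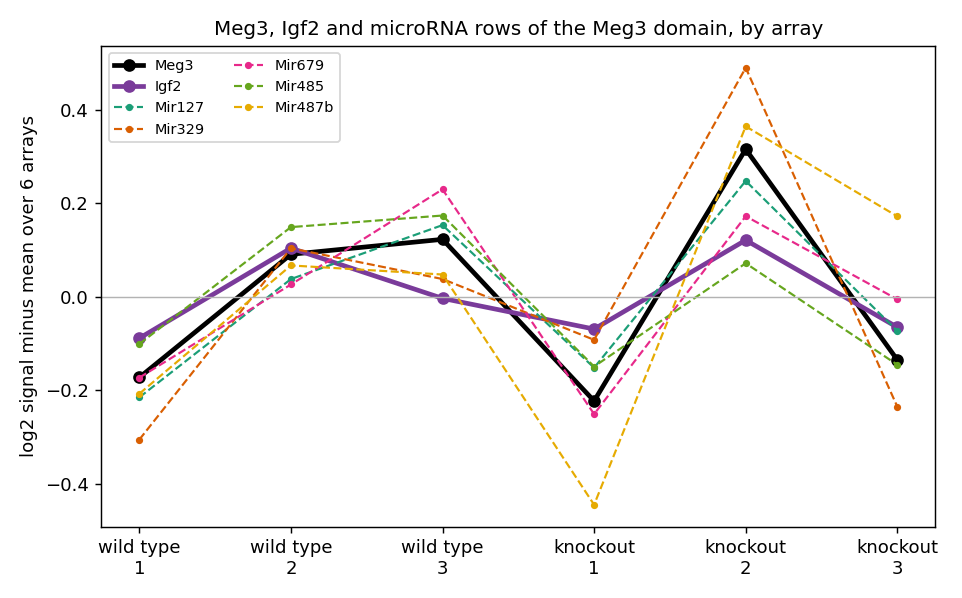
Log2 signal minus its mean over the 6 arrays (y axis) by array (x axis) for Meg3 and Igf2 (thick lines) and 5 microRNA rows of the Meg3 domain (dashed lines); lines join the values of a row and imply no order of arrays. Knockout replicate 2 is above the mean in every row, and wild-type replicate 1 and knockout replicate 1 are below it in every row. The 5 rows were chosen for an r of at least 0.7 with Meg3, so their likeness to it follows from the choice. Of all 39 rows, 15 were highest in knockout replicate 2 and 17 lowest in knockout replicate 1 (8.73% and 13.5% of all genes).

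The genes most like 3 members over the 6 arrays were sought among genes with a range of at least 0.5 log2 units and a mean above the background guide. Among 2141 such genes, those nearest to Igf2 were Mir329 (r = 0.90) of the Meg3 domain, Meg3 itself (0.90) and Scarna17 (0.86), a small RNA of Cajal bodies. Nearest to Dlk1 among 2140 genes were Tmem220 (r = 0.998), the motor neuron factor gene Lhx3 (0.997) and the scavenger receptor gene Scarf1 (0.996). Lhx3 read 7.72, 8.03 and 8.45 in wild type and 8.19, 8.20 and 8.39 in knockout, with wild-type replicates 1 and 3 at the ends as for Dlk1. These arrays were also the ends of the first principal component of all genes, which held 49.0% of the variance, with wild-type replicate 1 at 0.57 and wild-type replicate 3 at -0.70. Dlk1 had r = -0.89 with that component, so its closest matches lie along an axis that many genes share. Nearest to Peg3 were Bhlhe40 (0.93), Zfp458 (0.91) and Ptprb (0.90), the last a phosphatase of endothelium. A closest match is always found among so many genes over 6 arrays, and these are descriptions.

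Each member was also set against the mean level of cell type lists over the 6 arrays, 99 relations in all, given as descriptions. Cdkn1c ran against the neuron list, with r = -0.94 and rho = -0.94, and r = -0.90 without the 2 arrays farthest from the median of the list. The neuron list itself moved little, from 11.80 to 11.85 in wild type and from 11.83 to 11.88 in knockout. Grb10 had r = 0.82 with the pericyte list (rho = 0.89) and 0.69 with the motor neuron list (rho = 0.94). Without the 2 farthest arrays these r were 0.90 and 0.87. Peg3 ran against the microglia list, with r = -0.82 and rho = -0.89, and r = -0.81 without the 2 farthest arrays. Dlk1 followed the motor neuron list with r = 0.92 and the pericyte list with r = 0.91. These were 0.17 and 0.32 without the 2 arrays farthest from the median of the list, so both rest on those arrays. Dlk1 also had r = 0.88 with the skeletal muscle list (rho = 0.94), 0.79 with cartilage (rho = 0.89) and 0.76 with blood (rho = 0.83), which were 0.49, 0.56 and 0.48 without the 2 farthest arrays. Igf2 and Meg3 had r = 0.86 and 0.74 with the radial glia list, and -0.14 and 0.19 without them. The radial glia list includes Tnc, the gene that differs by genotype, and the part of Tnc in these r was not tested. The motor neuron list ran from 8.53 to 8.82 in wild type and from 8.77 to 8.82 in knockout, with 12 of 12 genes above the background guide. The pericyte list ran from 7.82 to 8.07 in wild type and from 7.99 to 8.07 in knockout, with 9 of 10 above it. The part of these cell types in the levels of the members was not tested.

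Other imprinted genes gave no call either. Of 48 measured of 59 listed, 23 stood above and 25 below wild type in knockout, and their median was -0.01. By limma 0 passed over all genes, and an unadjusted p under 0.05 was reached by 2 (4.17%, against 1.70% of all genes), both higher. They were Kcnk9, a potassium channel of neurons expressed from the maternal allele, and Asb4, a gene of the Peg10 domain. Kcnk9 averaged 10.47 ± 0.12 in the wild-type and 10.71 ± 0.08 in the knockout arrays (SD, n = 3 each), a difference of 0.24 (interval 0.04 to 0.45, limma unadjusted p = 0.0255). The same means of Asb4 were 7.77 ± 0.14 and 7.99 ± 0.06, a difference of 0.22 (interval 0.01 to 0.43, limma unadjusted p = 0.0426). Kcnk9 ran from 0.18 to 0.31 and Asb4 from 0.14 to 0.28 with any 1 array left out.

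Of the measured neighbours of the members in their domains, 0 had an unadjusted p under 0.05 in limma. Next to Igf2, the insulin gene Ins2 differed by -0.09 (interval -0.42 to 0.24) and Th, which encodes tyrosine hydroxylase, by 0.16 (-0.25 to 0.56). Of 9 genes around Cdkn1c and Kcnq1, 3 were higher and 6 lower, from -0.16 (Kcnq1) to 0.02 (Cd81). All 4 measured neighbours of Dlk1 and Meg3, namely Rtl1, Rian, Dio3 and Begain, were lower in knockout, as were 10678 of all 19938 genes. They ran from -0.16 (Rian, interval -0.34 to 0.02) to -0.02 (Rtl1, -0.35 to 0.30), and all 4 intervals include 0. Usp29 and Zim1, next to Peg3, differed by 0.04 and -0.05, and Copg2 and Klf14, next to Mest, by -0.03 and -0.04. Ddc, next to Grb10, differed by 0.25 (interval -0.08 to 0.58), more than any member. Its mean of 6.37 lay near the background guide of 6.14, and wild-type replicate 1, at 6.01, was below the guide. Ins2, with a mean of 6.13, was also below the guide, and Dio3, at 6.21, was near it. Of the 9 genes around Cdkn1c and Kcnq1, 7 had a mean above the guide.

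In the insulin-like growth factor axis, 23 of 27 listed genes were measured, with 14 above and 9 below wild type and a median of 0.02, and 0 had an unadjusted p under 0.05 in limma. Those of smallest p were the receptor substrate Irs1 (difference 0.12, interval -0.06 to 0.30), the binding protein gene Igfbp7 (0.17, -0.11 to 0.45) and Pappa (0.10, -0.07 to 0.27), a protease that cleaves binding proteins. Pappa lies on chromosome 4, as does Tnc, and the part of that location was not tested. The receptor Igf1r read 11.19 ± 0.07 in wild-type arrays against 11.17 ± 0.19 in knockout, and the ligand Igf1 9.72 ± 0.10 and 9.77 ± 0.04 (SD, n = 3 each). Of 10 measured family relatives of the members, 4 stood above and 6 below wild type. Their median was -0.02, with 0 at an unadjusted p under 0.05 in limma. The smallest p values belonged to Grb7 (-0.12, interval -0.29 to 0.04), Grb14 (0.07, -0.16 to 0.29) and Dlk2 (0.06, -0.15 to 0.27). Cdkn1b, which encodes the p57 relative p27, differed by -0.03 (interval -0.22 to 0.16).

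**Figure D5:**
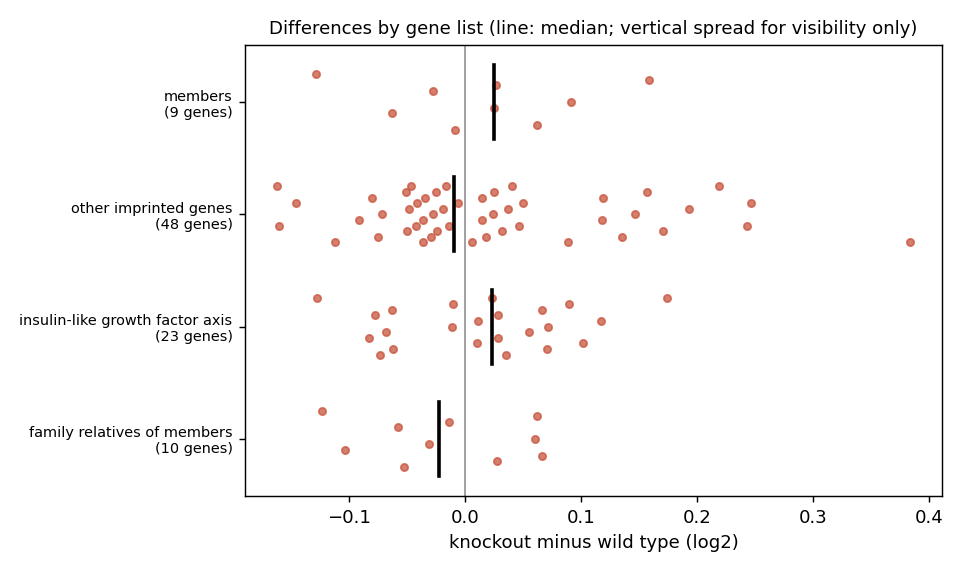
Knockout minus wild type in log2 units (x axis) for each measured gene of 4 lists (y axis); points are genes and black lines list medians. The medians lie between -0.02 and 0.02, and the 9 members lie between -0.13 and 0.16.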

How the data were processed

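The deposited values are log2 signals that the authors made with RMA, per the submitters' processing notes, which give no version. RMA removes global shifts between arrays and compresses small differences. Array medians lay between 6.96 and 7.10. Of 35557 transcript clusters 21789 carried 1 gene symbol in the platform annotation and 1621 several, and genes were named only from the former, updated through entrez identifiers (19938 genes). Groups were compared with limma 3.58.1 in R 4.3.3 (lmFit, eBayes, group as the only term, all 6 arrays, two-sided, Benjamini-Hochberg over all genes). Correlations used exact permutation of 6 arrays (720 orders); 45 pairs were planned, and 36 remained without H19. The fit was checked on simulated data. Members and gene lists were chosen with earlier results of these data known; domains and microRNA rows were added after seeing values. Genes named are the members, Tnc, genes of 3 related lists with unadjusted p under 0.05 or else the 3 of smallest p, and the 3 genes most like Igf2, Dlk1 and Peg3; other neighbours were named after their values were seen. Adjusted p-values over all genes decide calls. Each array was left out in turn, and a replicate block, dim-gene filters, an intensity trend, array weights, renewed quantile normalization, median centring, 2 rules for several clusters of a gene and a sex term were tried. Where nothing says that samples came from separate litters, p-values measure the spread between these samples. Figures were drawn with matplotlib 3.10.9.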

Additional observations from a re-analysis of the deposited data

How the results depend on the processing

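The number of arrays limits every value, and member intervals reach as far as 0.46 log2 units from no difference. No member passed an adjusted p of 0.05 under any of the 16 alternatives. The count over all genes was 0 and ran from 0 to 4 with 1 array left out. The 4, all sex-linked, came without knockout replicate 2. With array weights, 4 members (Cdkn1c, Dlk1, Grb10, Peg3) had an unadjusted p under 0.05 in limma, with a smallest adjusted p of 0.121. Dlk1, Cdkn1c, Grb10 and Tnc kept their direction under all 16. Not all of these could turn a direction. The replicate block, the dim-gene filters and the intensity trend cannot alter a difference. The 2 rules for several clusters of a gene left the differences of the members and Tnc unaltered. Whether replicate numbers pair the arrays is not known. The deviations of same-numbered arrays correlated at 0.35, -0.07 and 0.45 for replicates 1, 2 and 3. On the first principal component of all genes, wild-type replicates 1 to 3 stood at 0.57, 0.16 and -0.70. Knockout replicates 1 to 3 stood at 0.26, 0.01 and -0.29, in the same order. With the replicate block 0 genes passed an adjusted p of 0.05. Each replicate number occurs once per group, so the block leaves every difference as it was, that of Tnc at -0.69, and alters only the error.

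Other directions depend on single arrays. With 1 array left out, the difference of Igf2 ran from -0.071 to 0.042, that of Meg3 from -0.19 to 0.077, Igf2r from -0.043 to 0.13, Plagl1 from -0.12 to 0.053, Peg3 from -0.017 to 0.15 and Mest from -0.053 to 0.083. Peg3 and Mest turned only without knockout replicate 2, and Plagl1 only without knockout replicate 1 among these. With a sex term Igf2 was 0.12, Meg3 0.30, Plagl1 0.055 and Igf2r -0.014, and with array weights Meg3 was 0.025. The count of member pairs with r of at least 0.9 was 1. It was 2 with median centring and ran from 1 to 3 with 1 array left out. Without the 2 arrays farthest from the median of the first gene of a pair, a setting chosen after seeing the data, it was 5. Those arrays differ between pairs, and a high r is more easily reached over fewer arrays, so this count cannot be set against that over 6. Peg3 and Mest had r = -0.31 without wild-type replicate 1 and knockout replicate 2. The cause was not tested.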

Other observations

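Imprinted genes outside the growth regulators were measured with the same arrays, and Cd81 and Nnat had the smallest SDs over the 6 arrays, 0.017 and 0.020, of the 48 measured. Nnat, which encodes neuronatin, a small membrane protein of developing neurons, averaged 13.22 ± 0.01 in the wild-type and 13.18 ± 0.01 in the knockout arrays (SD, n = 3 each). Its groups did not overlap, yet the difference was -0.03, with an interval from -0.18 to 0.12. Groups without overlap were found for 4 of the 48 genes (8.33%, against 5.82% of all genes). Cd81, a membrane tetraspanin, was 12.50 ± 0.01 and 12.51 ± 0.02.

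The greatest difference among the 48 other imprinted genes was 0.38 for Dcn, which encodes the matrix proteoglycan decorin and also stands in the list of meninges and fibroblasts. Its means were 9.56 ± 0.28 in the wild-type and 9.94 ± 0.26 in the knockout arrays, with overlapping groups, an interval from -0.01 to 0.77 and an unadjusted p of 0.0529 in limma. The meninges and fibroblast list had 4 genes higher and 14 lower in knockout, with a median of -0.14. Nap1l5 differed by 0.19 (interval -0.01 to 0.39).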
